A study of Arabidopsis thaliana with 6 samples.

Results

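Nuclear genes for the photosystems, the electron carriers between them and the Calvin cycle were followed in leaves of Arabidopsis thaliana, AN3-GR plants against wild type plants. The genes were chosen by name, as 54 loci that encode light-harvesting proteins, photosystem subunits, electron carriers and enzymes of carbon fixation, and 42 of them were measured among the 21428 probe sets of the arrays. The other 12 were not analysed here: LHCA2, the LHCB1 genes (LHCB1.1 to LHCB1.5), LHCB2.1, LHCB2.2 and the Rubisco small subunit genes RBCS1A, RBCS1B, RBCS2B and RBCS3B. The main trimeric antenna of photosystem II is therefore represented by 2 genes of 9, and the small subunit of Rubisco by 0 of 4.

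The AN3-GR plants carry AN3 joined to the glucocorticoid receptor domain, and both genotypes are of the accession Columbia-0. AN3 is a transcriptional coactivator that promotes cell proliferation in leaves, and the receptor domain holds a fused protein inactive until a steroid is given. Seedlings of both genotypes were 8 days old, counted after stratification, grew in a day of 16 h with an 8 h night, and were kept on 5 µM dexamethasone for 8 h before leaves 1 and 2 were dissected. Each genotype had 3 Affymetrix ATH1 arrays, described as biological repeats, so the 6 arrays give 1 comparison, AN3-GR against wild type. The promoter of the fusion and the number of transgenic lines are not given in the sources used here. With no AN3-GR plants off the steroid analysed here, what the transgenic line carries at rest and what activated AN3 adds cannot be told apart.

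In plants, photosystem II splits water and photosystem I reduces ferredoxin, and light is gathered for both by chlorophyll-binding antenna proteins of the LHCB and LHCA families. Plastocyanin and the cytochrome b6f complex carry electrons between the photosystems, and the Calvin cycle uses the ATP and NADPH that result to fix carbon dioxide. Most of these proteins are encoded in the nucleus and imported into the chloroplast, and their transcripts are among the most abundant of green leaf cells. They are known to accumulate as leaf cells stop dividing and the mesophyll turns green.

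AN3 itself checked the genotype labels. Its expression value was 10.56, 10.02 and 10.55 on the AN3-GR arrays and 7.39, 6.98 and 7.61 on the wild type arrays, on the log2 scale of the deposited values. Its log2 change, AN3-GR minus wild type, was 3.05 with an SE of 0.19 (adjusted p = 0.000303, from limma, adjusted by Benjamini-Hochberg over all probe sets). The related coactivator genes GIF2 and GIF3 had changes of 0.11 and 0.044 and were not called. The median change over all probe sets was −0.019, array medians lay between 6.22 and 6.32, and the highest value on an array lay between 13.96 and 14.18.

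The photosynthesis genes had small negative changes almost throughout, and none of them was called. Of the 42 measured, 41 had a lower mean in AN3-GR than in wild type, with a median log2 change of −0.16, or a difference in level of −10.6%. In whole leaves, fewer green cells and less RNA per cell cannot be told apart. Changes ranged from −0.54 to 0.0055, with SEs between 0.086 and 0.22. By limma, 0 of the 42 genes passed an adjusted p of 0.05, against 0.789% of all probe sets called in either direction and 0.229% called as lower, and the smallest adjusted p was 0.0996. At an unadjusted p of 0.05, 8 genes passed, all with a negative change. These are 19.0% of the 42, while 18% of all probe sets passed at that level in either direction and 7.86% with a negative change. A negative change as such was found for 54.2% of all probe sets.

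The arrays separated the genotypes for some of these genes and not for others. For 17 of the 42 genes, or 40.5%, all 3 AN3-GR arrays lay below all 3 wild type arrays, as did 9.4% of all probe sets. They lay above for 0 of the 42 genes and for 2739 of all 21428 probe sets. Compared within arrays of the same replicate number, 38 genes (90.5%) were lower in AN3-GR in all 3 pairs, against 23.6% of all probe sets. The 42 genes were read from the same arrays and shifted together between them, so these counts are not independent observations. Of the 42 genes, 40 lay in the brightest 5% of probe sets, the exceptions being LHCB2.3 and LHCB4.3. The other 1032 probe sets of that range had a median change of 0.029, and 14.3% of them had every AN3-GR array below every wild type array. For 232 of the 1032 every AN3-GR array lay above, and 29.7% were lower in all 3 pairs. The plot of expression values by array shows both the small size of the differences and their spread.

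**Figure D1:**
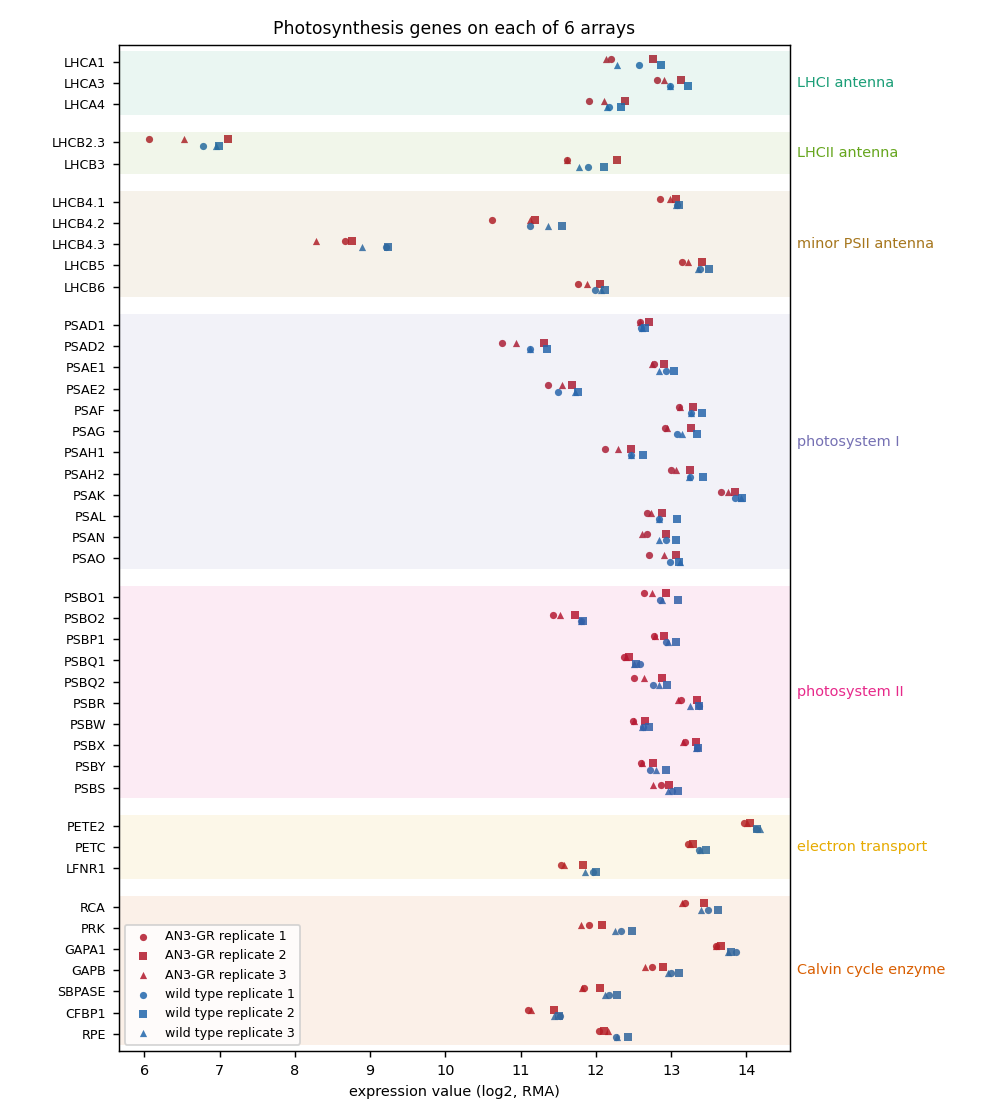
Expression values (log2, RMA) of the 42 measured genes on each array, in rows grouped by complex, with AN3-GR arrays in red, wild type arrays in blue and the symbol giving the replicate number. For 17 genes, PRK and LHCB4.3 among them, the AN3-GR points all lie left of the wild type points, and for the others they overlap.

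With the replicate number as a block in limma, 2 of the 42 genes (4.76%) passed as lower in AN3-GR, against 3.03% of all probe sets that passed as lower and 6.63% in either direction. Probe sets are named by gene locus, and these 2 were LHCB4.3 (AT2G40100_at; block adjusted p = 0.0236) and PRK (AT1G32060_at; block adjusted p = 0.0307). Without the block their limma adjusted p-values were 0.111 and 0.0996. The share of called genes in that fit is near the background, so the count is not a result about the group.

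LHCA1 (AT3G54890_at), LHCA3 (AT1G61520_at) and LHCA4 (AT3G47470_at) encode proteins of the belt that feeds photosystem I. LHCA1 read 12.20, 12.76 and 12.13 in AN3-GR and 12.57, 12.86 and 12.28 in wild type, a log2 change of −0.21 (SE 0.19; limma adjusted p = 0.602) that ran from −0.40 to −0.062 as single arrays were left out. LHCA3 read 12.81, 13.13 and 12.90 in AN3-GR and 12.99, 13.22 and 12.98 in wild type, with a change of −0.11 (SE 0.12). LHCA4 read 11.91, 12.39 and 12.11 in AN3-GR against 12.17, 12.33 and 12.15 in wild type, with a change of −0.086 (SE 0.13). The genotypes overlapped for all 3 genes, and replicate 2 was the highest array of each genotype.

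The trimeric antenna of photosystem II could be followed through LHCB2.3 (AT3G27690_at) and LHCB3 (AT5G54270_at). LHCB2.3 encodes a subunit that takes part in the reversible movement of the antenna between the photosystems. It read 6.06, 7.11 and 6.53 in AN3-GR and 6.78, 6.98 and 6.95 in wild type. Its change of −0.34 (SE 0.22; limma adjusted p = 0.455) came with the widest interval, from −0.84 to 0.16 at 95% confidence, and AN3-GR replicate 2 was the highest of the 6 arrays. The change was −0.61 without AN3-GR replicate 2 and −0.085 without AN3-GR replicate 1. LHCB3, a subunit of the moderately bound trimers, read 11.61, 12.29 and 11.62 in AN3-GR against 11.89, 12.11 and 11.78 in wild type. Its change was −0.087 (SE 0.18), and it became positive, at 0.027, 0.024 and 0.0040, without AN3-GR replicate 1, AN3-GR replicate 3 or wild type replicate 2.

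The minor antenna proteins CP29, CP26 and CP24, encoded by the LHCB4 genes, LHCB5 and LHCB6, link the trimers to the photosystem II core. LHCB4.3, one of the 3 CP29 genes, had the most negative change of the 42. It read 8.66, 8.76 and 8.28 on the AN3-GR arrays and 9.20, 9.23 and 8.90 on the wild type arrays, so that the genotypes did not overlap. The change was −0.54 (SE 0.15), or −31.4% in level. LHCB4.3 passed limma without wild type replicate 3 (adjusted p = 0.0472) and not without any other single array (0.120 to 0.340).

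LHCB4.2 (AT3G08940_at) read 10.61, 11.19 and 11.12 in AN3-GR and 11.12, 11.55 and 11.36 in wild type. Its change was −0.37 (SE 0.17; limma adjusted p = 0.286), and the genotypes overlapped only in that AN3-GR replicate 2 lay above wild type replicate 1. LHCB4.1 (AT5G01530_at) averaged 12.97 ± 0.11 in AN3-GR against 13.08 ± 0.018 in wild type (SD, n = 3 each), a change of −0.11 (SE 0.094), and its genotypes narrowly failed to overlap. The 3 CP29 genes thus had changes between −0.54 and −0.11. LHCB5 (AT4G10340_at) read 13.15, 13.41 and 13.22 in AN3-GR and 13.39, 13.51 and 13.36 in wild type. LHCB6 (AT1G15820_at) read 11.76, 12.05 and 11.89 in AN3-GR and 11.99, 12.12 and 12.07 in wild type. The change was −0.16 (SE 0.10) for each, and both overlapped between the genotypes through AN3-GR replicate 2.

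The 12 genes for photosystem I subunits had a median change of −0.15 and a range from −0.23 to 0.0055, and 11 of them were negative. PSAH1 (AT3G16140_at), one of the 2 genes for the subunit at which the trimeric antenna docks, read 12.12, 12.46 and 12.29 in AN3-GR against 12.46, 12.62 and 12.47 in wild type. The change of PSAH1 was −0.23 (SE 0.11; limma adjusted p = 0.325) and its genotypes did not overlap, although AN3-GR replicate 2 lay almost level with wild type replicate 1. Its partner PSAH2 (AT1G52230_at) read 13.00, 13.24 and 13.06 in AN3-GR and 13.26, 13.43 and 13.24 in wild type, with a change of −0.20 (SE 0.10). PSAN (AT5G64040_at), which lies on the lumenal side where plastocyanin docks, read 12.68, 12.93 and 12.61 in AN3-GR and 12.93, 13.07 and 12.84 in wild type, with a change of −0.21 (SE 0.11).

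PSAK (AT1G30380_at), an outer subunit near the antenna belt, read 13.67, 13.85 and 13.76 in AN3-GR and 13.85, 13.94 and 13.92 in wild type. Its arrays separated by genotype although the change was −0.15 (SE 0.093; limma adjusted p = 0.440). The other photosystem I genes were PSAF (AT1G31330_at) and PSAG (AT1G55670_at) at −0.14 and −0.15, PSAL (AT4G12800_at) at −0.16 and PSAO (AT1G08380_at) at −0.18, and their genotypes overlapped. PSAF forms part of the plastocyanin docking site, PSAG binds the antenna belt, and PSAL and PSAO lie on the side where the trimeric antenna attaches.

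PSAD1 (AT4G02770_at) was the 1 gene of the 42 without a negative change. PSAD1 and PSAD2 (AT1G03130_at) encode the subunit that docks ferredoxin, and PSAD1 averaged 12.63 ± 0.072 in AN3-GR against 12.62 ± 0.026 in wild type (SD, n = 3 each), with a change of 0.0055 (SE 0.089; 95% interval −0.20 to 0.21). PSAD2 had a change of −0.20 (SE 0.15). The sign of the PSAD1 change was negative after median centring (−0.029) and repeated quantile normalization (−0.036). PSAE1 (AT4G28750_at) and PSAE2 (AT2G20260_at), for another stromal subunit, both had a change of −0.13.

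All 10 genes for photosystem II subunits had small negative changes, which lay between −0.25 and −0.099 around a median of −0.16, with SEs between 0.087 and 0.12. PSBO1 (AT5G66570_at) and PSBO2 (AT3G50820_at) encode the manganese-stabilising protein of the oxygen-evolving complex. PSBO2 read 11.43, 11.72 and 11.52 in AN3-GR against 11.81, 11.83 and 11.80 in wild type, with a change of −0.25 (SE 0.10; limma adjusted p = 0.235). Its wild type arrays lay close together, above every AN3-GR array. PSBO1 read 12.64, 12.93 and 12.74 in AN3-GR and 12.85, 13.09 and 12.88 in wild type, with a change of −0.17 (SE 0.11) and overlapping genotypes.

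Of the other oxygen-evolving proteins, PSBP1 (AT1G06680_at) had a change of −0.16, PSBQ1 (AT4G21280_at) of −0.14 and PSBQ2 (AT4G05180_at) of −0.17. PSBQ2 read 12.50, 12.88 and 12.64 in AN3-GR and 12.75, 12.94 and 12.83 in wild type, and overlapped, whereas PSBP1 and PSBQ1 did not. The small membrane subunits PSBW (AT2G30570_at) and PSBX (AT2G06520_at) had the changes nearest to 0 among the 10, at −0.099 and −0.12. PSBX nevertheless separated by genotype, with 13.19, 13.33 and 13.16 in AN3-GR and 13.34, 13.36 and 13.34 in wild type. PSBR (AT1G79040_at) and PSBY (AT1G67740_at) stood at −0.14 and −0.16. PSBS (AT1G44575_at), which is needed for the rapid release of excess light energy as heat, was at −0.16 (SE 0.10) and overlapped.

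**Figure D2:**
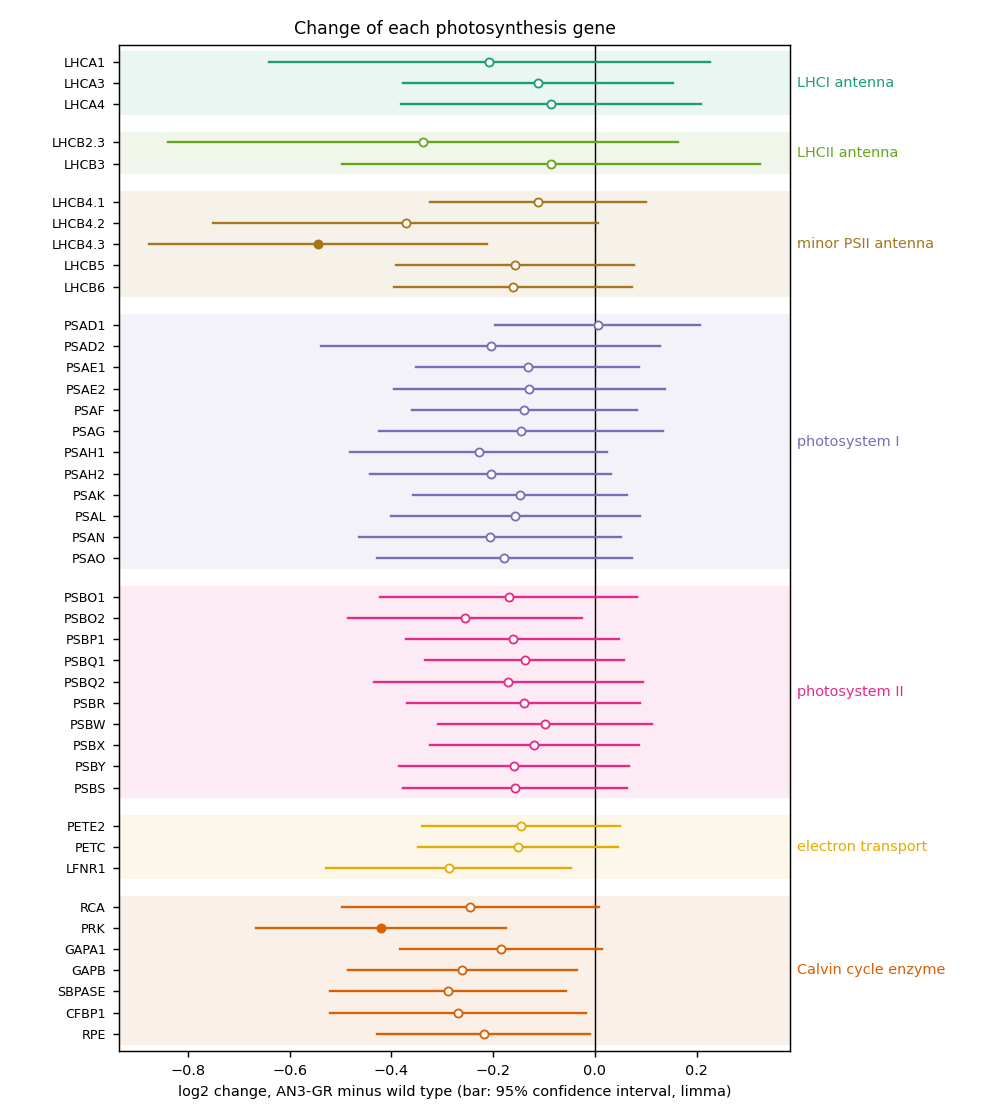
Log2 change of each gene, AN3-GR minus wild type, with its 95% confidence interval from limma, in rows grouped by complex. Filled circles mark LHCB4.3 and PRK, which passed with the replicate block, and 0 genes passed without it. All changes except that of PSAD1 (0.0055) lie left of 0, and 8 intervals do not reach 0.

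All 3 electron transport genes had negative changes and every AN3-GR array below every wild type array. So did 9.4% of all probe sets and 14.3% of the other probe sets in the brightest 5%. PETE2 (AT1G20340_at), a plastocyanin gene, was the brightest probe set on all 6 arrays. It read 13.96, 14.04 and 14.01 in AN3-GR and 14.12, 14.14 and 14.18 in wild type, with a change of −0.15 (SE 0.086; limma adjusted p = 0.408). PETC (AT4G03280_at), the Rieske protein of the cytochrome b6f complex, read 13.23, 13.29 and 13.25 in AN3-GR and 13.37, 13.46 and 13.38 in wild type, also with a change of −0.15 (SE 0.087). LFNR1 (AT5G66190_at), which reduces NADP with electrons from ferredoxin, had the most negative change of the 3. It read 11.54, 11.83 and 11.58 in AN3-GR against 11.95, 11.997 and 11.86 in wild type, with a change of −0.29 (SE 0.11; limma adjusted p = 0.207). The change of PETE2 is 0 after repeated quantile normalization, because the highest value of every array is then set equal.

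The 7 Calvin cycle enzymes had the most negative median of the complexes, −0.26, or −16.5% in level. A further 11 genes of the cycle, described below, had a median of −0.16. The changes of all 7 were negative, from −0.42 to −0.18, and 6 of the 7 had every AN3-GR array below every wild type array. This held for 9.4% of all probe sets and 14.3% of the other probe sets in the brightest 5%. At an unadjusted p of 0.05, 5 of the 7 passed, against 7.86% of all probe sets that passed with a negative change. PRK makes ribulose bisphosphate, the acceptor of carbon dioxide. It read 11.91, 12.08 and 11.80 in AN3-GR and 12.33, 12.48 and 12.25 in wild type. The change was −0.42 (SE 0.11), or −25.3% in level, and was similar in the 3 pairs at −0.42, −0.40 and −0.44. With single arrays left out it ranged from −0.50 to −0.36, and the limma adjusted p from 0.0607 to 0.379.

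SBPASE (AT3G55800_at) and CFBP1 (AT3G54050_at) encode the sedoheptulose and fructose bisphosphatases of the regenerative part of the cycle. SBPASE read 11.84, 12.05 and 11.81 in AN3-GR and 12.18, 12.28 and 12.12 in wild type, with a change of −0.29 (SE 0.10; limma adjusted p = 0.193). CFBP1 read 11.09, 11.44 and 11.14 in AN3-GR and 11.52, 11.50 and 11.45 in wild type. Its change was −0.27 (SE 0.11; limma adjusted p = 0.251), and AN3-GR replicate 2 lay just below the wild type arrays. GAPA1 (AT3G26650_at) and GAPB (AT1G42970_at) form the chloroplast glyceraldehyde 3-phosphate dehydrogenase. GAPA1 read 13.60, 13.66 and 13.60 in AN3-GR and 13.87, 13.80 and 13.76 in wild type, with a change of −0.18 (SE 0.088). GAPB averaged 12.76 ± 0.12 in AN3-GR against 13.02 ± 0.072 in wild type (SD, n = 3 each), with a change of −0.26 (SE 0.10).

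RPE (AT5G61410_at), the pentose phosphate epimerase, had a change of −0.22 (SE 0.093), from 3 AN3-GR arrays at 12.11 ± 0.058 against wild type arrays at 12.32 ± 0.084. RCA (AT2G39730_at), the activase that frees Rubisco of inhibiting sugar phosphates, had a change of −0.24 (SE 0.11; limma adjusted p = 0.291). It was the 1 enzyme of the 7 whose genotypes overlapped, at 13.26 ± 0.16 in AN3-GR against 13.50 ± 0.11 in wild type.

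The complexes were then compared with one another by the mean of their genes on each array. Calvin cycle enzymes averaged 12.34, 12.52 and 12.33 on the AN3-GR arrays and 12.66, 12.74 and 12.60 on the wild type arrays. Photosystem I averaged 12.53, 12.80 and 12.60 in AN3-GR and 12.73, 12.90 and 12.76 in wild type, so its genotypes overlapped and those of the Calvin cycle did not. Within pairs of the same replicate number, the mean change of the Calvin cycle enzymes minus that of photosystem I was −0.11, −0.12 and −0.11, and minus that of photosystem II it was −0.12, −0.12 and −0.10. The 2 photosystems differed by 0.0063, 0.0039 and −0.014, photosystem II minus photosystem I, with no common sign.

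Electron transport genes averaged 12.91, 13.05 and 12.95 in AN3-GR and 13.15, 13.20 and 13.14 in wild type, without overlap. Their mean change lay between those of the photosystems and the Calvin cycle in all 3 pairs. Minor antenna genes averaged 11.41, 11.69 and 11.50 in AN3-GR and 11.76, 11.90 and 11.75 in wild type. Their mean change of −0.27 equalled that of the Calvin cycle, but it was −0.20 without LHCB4.3, and their median was −0.16. The LHCI antenna had a median of −0.11 over 3 genes, which ran from −0.21 (without AN3-GR replicate 2) to −0.034 (without wild type replicate 2) as single arrays were left out, so the place of LHCI among the complexes was not settled. The median of the Calvin cycle enzymes lay below those of photosystem I, photosystem II, electron transport, LHCI and the minor antenna in all 13 settings of the fit. Some settings could not alter that order. The replicate block, the intensity trend and the filter of weak probe sets leave log2 changes as they are, and median centring shifts all genes alike. The median of the 2 LHCII genes was −0.21, but it depended on single arrays. It was −0.029 without AN3-GR replicate 1 and −0.46 without AN3-GR replicate 2, where the Calvin cycle median was −0.21 and −0.33, and with array weights it was −0.37 against −0.30. The complexes also differed in signal level. The median level was 12.21 for the Calvin cycle, 12.86 for photosystem I and 12.81 for photosystem II. It was 13.33 for electron transport, 12.47 for LHCI and 11.98 for the minor antenna. The part of signal level in the changes was not tested. The differences in change between complexes have no test, since a score over chosen genes was given none. No such gap lay between the medians of the further genes described below. It was −0.16 for 11 further Calvin cycle genes and −0.16 for 14 further light-reaction genes.

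**Figure D3:**
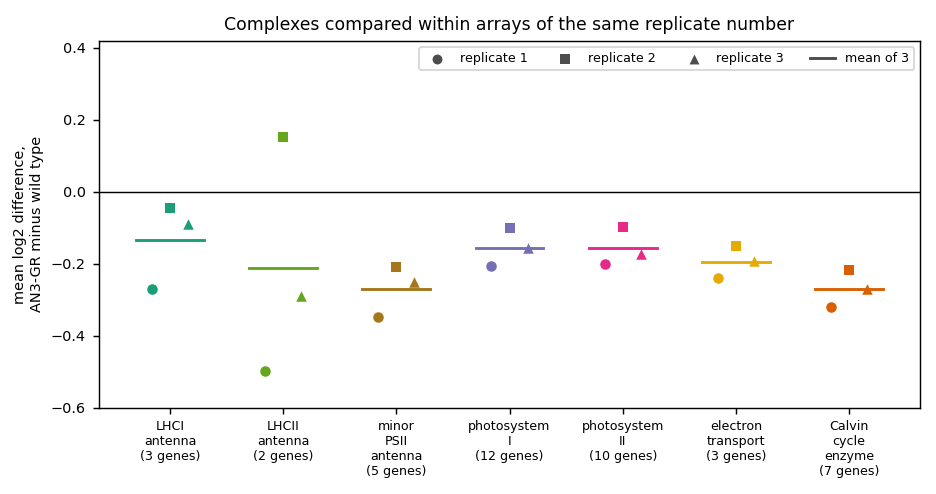
Mean log2 difference of each complex, AN3-GR minus wild type, for the arrays of replicate 1 (circle), 2 (square) and 3 (triangle), with a line at the mean of 3. The Calvin cycle lies below both photosystems at every replicate number, and the LHCII antenna, with 2 genes, spreads from −0.50 to 0.15.

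The array numbered 2 was the highest of each genotype for most of these genes. Replicate 2 was the highest AN3-GR array for 41 of the 42 genes and the highest wild type array for 37, and it was the highest of both genotypes for 36. Over all 21428 probe sets these counts were 7425, 7809 and 3772. The mean over all 42 genes was 12.22, 12.49 and 12.27 in AN3-GR and 12.48, 12.61 and 12.47 in wild type, so AN3-GR replicate 2 lay slightly above wild type replicates 1 and 3. In pairs of the same number the mean difference was −0.26, −0.12 and −0.20. Across the 42 genes, the deviations of same-numbered arrays from their genotype means correlated with r of 0.653, 0.539 and 0.795. That describes these genes on shared arrays and was not tested.

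The spread between arrays of one genotype differed among the complexes. The pooled SD within genotypes had a median of 0.34 over the 2 LHCII genes and 0.18 over the 3 LHCI genes, against 0.13 for photosystem I, 0.11 for the minor antenna, 0.096 for photosystem II, 0.041 for electron transport and 0.11 for the Calvin cycle enzymes. Single genes elsewhere reached 0.27 (LHCB4.2) and 0.22 (PSAD2), above the 0.15 of LHCA3. The 42 genes had a median SD of 0.11, and all probe sets one of 0.14. The heat map of deviations shows replicate 2 above the others in each genotype.

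**Figure D4:**
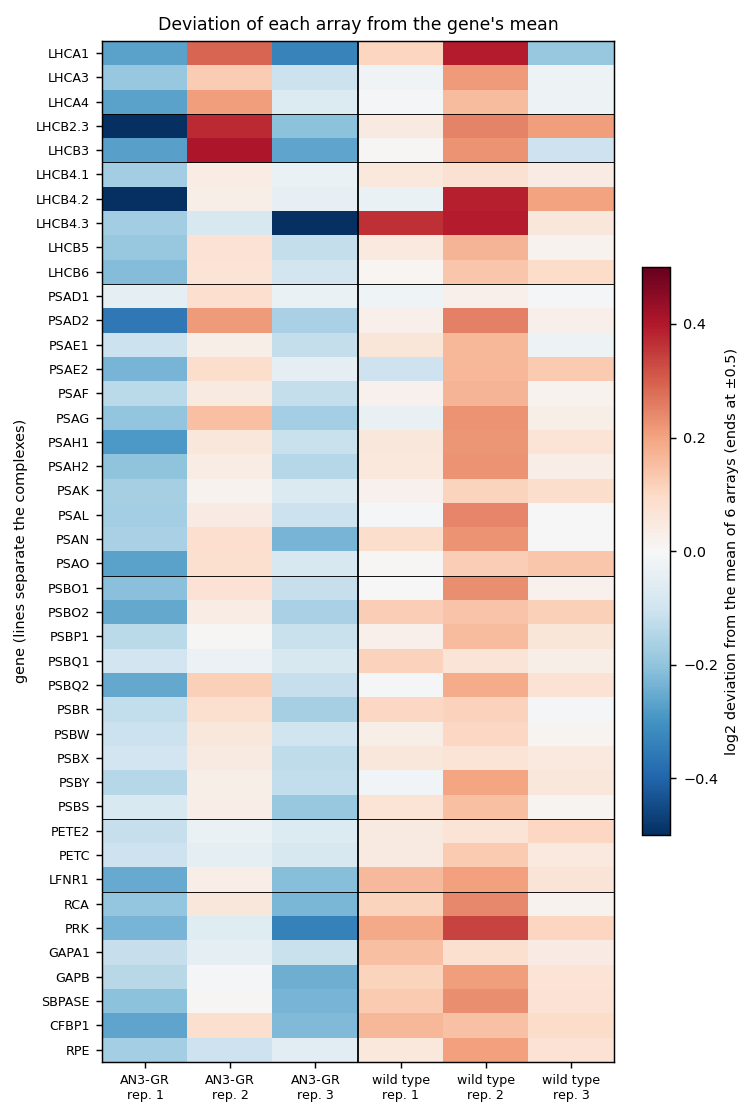
Deviation of each array from the gene's mean over 6 arrays (log2, colour scale ending at ±0.5), with AN3-GR arrays left of the black line and wild type arrays right of it. AN3-GR replicates 1 and 3 are mostly blue, wild type arrays mostly red, and replicate 2 is the highest of both genotypes for 36 of 42 genes.

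Other genes of the same pathways were examined as lists. Their counts are to be read beside all probe sets, of which 0.789% were called (6.63% with the replicate block) and 54.2% had a negative change. All 14 further nuclear genes of the light reactions were negative around a median of −0.16, and 0 were called. LHCA6, an antenna protein that joins photosystem I to the NDH complex, read 10.45, 10.76 and 10.42 in AN3-GR and 10.98, 11.23 and 10.99 in wild type. Its change was −0.52 (SE 0.12; limma adjusted p = 0.0785, and 0.0239 with the replicate block). The ferredoxin gene FD2 had the least negative change, −0.053 (SE 0.090).

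Among 11 further Calvin cycle genes 10 were negative, the median was −0.16, and 0 were called. CP12-2, for a small protein that binds PRK and glyceraldehyde 3-phosphate dehydrogenase into an inactive complex, read 10.89, 11.28 and 10.59 in AN3-GR and 11.56, 11.85 and 11.40 in wild type. Its change of −0.68 (SE 0.18; limma adjusted p = 0.105, and 0.0188 with the replicate block) was larger than that of any of the 42 genes. With the block 4 of these 11 genes passed as lower, against 3.03% of all probe sets, namely CP12-2, the aldolase gene FBA1 at −0.45, GAPA2 at −0.40 and the phosphoglycerate kinase gene PGK2 at −0.37. TKL2, a transketolase gene that averaged 6.15 in AN3-GR against 5.81 in wild type, was the 1 positive member at 0.34 (SE 0.13).

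Photorespiration recycles the product that Rubisco makes with oxygen, and its 9 measured genes (of 12 listed) were all negative. Their median was −0.25, and −0.16 without wild type replicate 2. By limma 0 were called, and 4 passed as lower with the replicate block, against 3.03% of all probe sets. These were the aminotransferase genes AGT1 at −0.51 and GGT1 at −0.50, the glycine decarboxylase gene GLDP1 at −0.50 and the hydroxypyruvate reductase gene HPR1 at −0.48. AGT1 read 11.75, 11.97 and 11.61 in AN3-GR against 12.24, 12.47 and 12.14 in wild type, without overlap (limma adjusted p = 0.0933, and 0.0243 with the block). GLDP2 was nearest to 0 at −0.11 (SE 0.17). Genes for antenna insertion and photosystem assembly, 9 in all, had a median of −0.10, from −0.26 (HCF173) to 0.054 (CPFTSY), and 0 were called with or without the block.

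Among 12 regulators of photosynthesis genes, 7 changes were negative and 5 positive, with a median of −0.041 and 0 called. The sign of that median was not stable, since it was 0.030 after repeated quantile normalization and ran from −0.072 to 0.056 as single arrays were left out. GLK1 and GLK2 are transcription factors that promote antenna and chlorophyll genes. GLK1 read 8.97, 9.20 and 9.44 in AN3-GR and 9.53, 9.68 and 9.87 in wild type, without overlap. Its change was −0.49 (SE 0.14; limma adjusted p = 0.125, and 0.0257 with the block), and that of GLK2 was −0.28 (SE 0.10; limma adjusted p = 0.181). CGA1, a GATA factor of chloroplast development, had the most positive change of the list at 0.35 (SE 0.11; limma adjusted p = 0.153), and its arrays did not overlap. HY5, a light-signalling factor, stood at 0.34 (SE 0.10; limma adjusted p = 0.134, and 0.0503 with the block).

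Markers of other cells describe the makeup of the samples only in part. Of all marker genes listed, 0 were called, against 0.789% of all probe sets. The 7 shoot meristem and boundary markers had mean levels between 3.18 and 4.18 and the 6 root markers between 3.16 and 4.64, near the lower quartiles of the arrays, which were 3.99 to 4.21. The meristem list averaged 3.55 to 3.67 over its genes on AN3-GR arrays and 3.51 to 3.73 on wild type arrays, with 7 of 7 changes negative, from −0.12 (CUC3) to −0.028 (KNAT1), and a median of −0.048. The root list averaged 3.73 to 3.79 on AN3-GR arrays and 3.78 to 4.06 on wild type arrays, with 6 of 6 changes negative, from −0.22 (CASP2) to −0.072 (RCI3), and a median of −0.14. Of all probe sets, 54.2% had a negative change. In all 3 pairs of the same replicate number, 0 of the 7 meristem and 3 of the 6 root markers were lower, against 23.6% of all probe sets.

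Markers of cell types that leaves hold had higher mean levels, between 5.11 and 11.45, some of them below the array medians of 6.22 to 6.32. The 5 epidermal genes averaged 9.82 to 9.94 on AN3-GR arrays and 9.82 to 9.91 on wild type arrays, with changes from −0.081 (KCS10) to 0.11 (PDF2) and a median of −0.0045. The 7 stomatal lineage genes averaged 7.17 to 7.37 in AN3-GR against 7.34 to 7.49 in wild type, with 7 of 7 changes negative, from −0.24 (MUTE) to −0.046 (EPF2), and a median of −0.071. Of these 7 genes, 1 was lower in all 3 pairs of the same replicate number, against 23.6% of all probe sets. The 6 vascular genes averaged 6.16 to 6.30 in AN3-GR against 6.11 to 6.35 in wild type, from −0.24 (CESA4) to 0.28 (APL), with a median of −0.021. The averages of these 3 lists overlapped between the genotypes, and their medians became positive (0.0035 to 0.028) without AN3-GR replicate 3. The 3 measured trichome genes averaged 6.91 to 7.02 in AN3-GR against 6.34 to 6.97 in wild type, so these averages overlapped too. Their changes ran from 0.21 (GL2; SE 0.14) to 0.51 (GL1; SE 0.32). Every AN3-GR array lay above every wild type array for 0 of the 3, and for 2739 of all 21428 probe sets. ETC2 at 0.41 passed limma with the block (adjusted p = 0.0470), as did 6.63% of all probe sets in either direction. The part of cell makeup in the values of the photosynthesis genes was not tested.

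**Figure D5:**
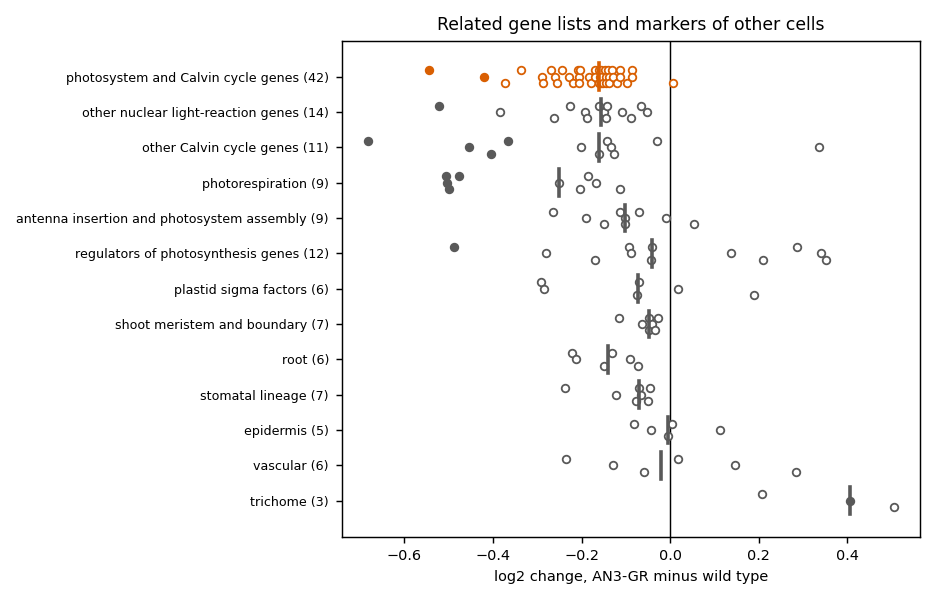
Log2 change, AN3-GR minus wild type, of the 42 photosystem and Calvin cycle genes (orange, top row) and of the genes in 12 other lists (grey), with a bar at each median and the number of genes in parentheses. Filled circles passed an adjusted p of 0.05 with the replicate block. The 4 lists of photosynthesis and photorespiration genes have medians between −0.25 and −0.10, and the lists of markers of other cells have medians of −0.048 (shoot meristem), −0.14 (root), −0.071 (stomatal lineage), −0.0045 (epidermis), −0.021 (vascular) and 0.41 (trichome).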

How the data were processed

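The authors deposited log2 expression values. RMA and limma, without versions, are named in the submitters' processing notes. RMA corrects background, gives the probes of all arrays one distribution and then summarises them by probe set, so a shift shared by most genes would be removed. Each probe set carries 1 gene locus in its deposited name. The sources used here give no version of that grouping. Symbols were checked in the RefSeq gene table of TAIR10.1, where 42 of 42 measured genes matched.

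Values were used as deposited, without a filter, and 0 columns of other samples were present. AN3-GR was compared with wild type by lmFit and eBayes in limma 3.58.1 (R 4.3.3), without covariates, two-sided, with Benjamini-Hochberg adjustment over all 21428 probe sets and a threshold of 0.05. Precision is limited by 3 arrays per genotype. Each p-value sets a difference against the spread between these arrays, which eBayes moderates with that of all probe sets.

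The genes, lists and tests were chosen with earlier results of these data known. All 42 genes may be named. Array values are given for the 24 that were among the 3 largest changes or the highest level of their complex, were called, or separated by genotype with a change over 0.3. In other lists, called genes and the extremes were named. The brightest 5% and the 8 isoform comparisons were chosen after values were seen, as were GLK2, HY5 and the list genes named for passing with the block.

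Both genotypes number their arrays 1 to 3. Deviations from the genotype means correlated between same-numbered arrays at 0.161, 0.416 and 0.494 over all probe sets, each above 0.1. Arrays of different numbers were not compared in this way, so these values do not show that same-numbered arrays belong together. The pairing rests on the numbers, since no label names a shared day. Other settings were repeated quantile normalization, median centring, leaving out the weakest 25% of probe sets, an intensity trend with robust prior, array weights, the replicate block, and leaving out each array.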

Additional observations from a re-analysis of the deposited data

How the results depend on the processing

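The median change of the 42 genes kept its sign in all 12 other settings, between −0.23 and −0.12, and 39 to 42 genes were negative. The replicate block, the intensity trend with robust prior and the filter of weak probe sets leave log2 changes as they are. Those settings could therefore not move the median or the count of negative genes. The count of called genes, 0, became 1 with an intensity trend and robust prior variance (PRK), 2 with array weights and 2 with the replicate block (LHCB4.3 and PRK in each), and 0 to 1 with single arrays left out (LHCB4.3 without wild type replicate 3). Over all probe sets 558, 1132 and 1420 were called in those 3 settings in place of 169, and 9 to 779 with single arrays left out, the highest without wild type replicate 3. In the other lists, AN3 and its relatives aside, 0 genes were called, against 5, 7 and 11 in those settings and 0 to 4 with single arrays left out. The replicate block pairs arrays by their numbers, and it changed no call of the 42 genes except those of LHCB4.3 and PRK. PSAD1 changed sign with repeated quantile normalization (−0.0362), median centring (−0.0287) and array weights (−0.0170), and ranged from −0.0360 to 0.0287 with single arrays left out. With single arrays left out, LHCA4 ranged from −0.212 to 0.0267 and LHCB3 from −0.310 to 0.0268. PETE2, the brightest probe set on every array, has a change of 0 after repeated quantile normalization by construction. For the other shifts the cause was not tested. Averaging near-identical copies was not run, since protein sequences were not used here.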

Other observations

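Of 15 plastid-encoded photosynthesis genes 1 was measured, psbA, for the D1 protein of photosystem II. It read 7.93, 8.41 and 7.79 in AN3-GR and 8.03, 8.08 and 8.36 in wild type, with a log2 change of −0.11 (limma adjusted p = 0.752) and overlapping genotypes. Without AN3-GR replicate 3 the change was 0.012. The 6 sigma factors, which direct the plastid polymerase to promoters, had changes from −0.29 (SIG3) to 0.19 (SIG6) with a median of −0.072. Of these, 0 were called with or without the replicate block, against 6.63% and 0.789% of all probe sets.

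For 8 pairs of isoform genes, chosen after values were seen, the changes within a pair were compared by an exact two-sided permutation test. With 3 arrays against 3 it cannot give a p below 0.1, which leaves every pair above the threshold, and it says nothing of whether isoforms differ.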
